A study of Mus musculus with 15 samples.

Results

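The 10 genes studied here, whose products hold sister chromatids together and release them in mouse oocytes, are the cohesin subunit genes Smc1a, Smc1b, Smc3, Rad21, Rec8 and Stag3, the shugoshin genes Sgo1 and Sgo2a, the separase gene Espl1 and the securin gene Pttg1. They were chosen by gene symbol, not by their values, although earlier results of these data were known. Every probe set that the array's annotation assigned to exactly 1 of these 10 symbols was taken. A probe set is a group of short DNA probes that reports 1 transcript region. The 10 genes had 18 probe sets among the 45037 outside the controls, and 15 of the 18 were among the 22519 probe sets bright enough to be tested. The remaining 3, the only probe sets of Rec8 and Stag3 and the dimmest of Pttg1, are given as levels.

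Cohesin is a ring built from a pair of SMC proteins, closed by a kleisin (Rad21 in most cells, Rec8 in meiosis) and bound by a STAG protein. In meiosis Smc1b, Rec8 and Stag3 supply germ-cell versions of the SMC1, kleisin and STAG subunits. Oocytes load cohesin before birth and must keep it until ovulation. Separase then cuts the kleisin along the chromosome arms at the first division, while shugoshin, which recruits the phosphatase PP2A, shields the kleisin at centromeres until the second. Securin and Cdk1 with cyclin B hold separase inactive until the anaphase-promoting complex marks securin and cyclin B for destruction.

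The arrays measured RNA of oocytes from B6D2F1 females, a hybrid laboratory strain, all given PMSG, a gonadotropin that stimulates follicle growth. Adult females of 7 to 8 weeks gave germinal vesicle (GV) oocytes, which are still arrested with an intact nucleus, collected 48 h after PMSG (2 arrays). Metaphase II (MII) oocytes, the mature eggs, came from adult females after hCG, a second hormone, in vivo (3 arrays) or after 16 h of culture of GV oocytes in vitro (2 arrays). Females of 26 days (d26) gave MII oocytes matured in vivo (2 arrays) or in vitro (3 arrays), and females of 20 days (d20) gave MII oocytes matured in vitro (3 arrays). Neither younger age had GV arrays. Each pool held 150 oocytes, from which the surrounding somatic cumulus cells had been removed with hyaluronidase. Whether the pools of a group derived from different animals is not stated in the labels, and p-values reflect only the spread among these samples, which may be technical.

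Levels are log2 values of the deposited array intensities after quantile normalization, which gives all 15 arrays the same distribution. A level is compared between groups for 1 probe set. Where probe sets are ranked by brightness, a higher level is not read as more RNA. Differences were tested with limma over all 22519 probe sets, and a probe set was called changed at a Benjamini-Hochberg adjusted p below 0.05. RNA was captured by its poly(A) tail, so a change in transcript number and a change in tail length cannot be told apart, and neither can fewer transcripts per oocyte and fewer intact oocytes in a pool.

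Brightness was uneven. The number of probe sets with a deposited intensity above 200 was 2615 to 3042 on 4 MII arrays, called dim here, and 4882 to 9819 on the rest, with the GV arrays highest. Replicate 1 of adult in vivo, replicate 2 of adult in vitro, and replicates 2 and 3 of d26 in vitro were dim. On the array, 9 of 10 oocyte marker genes had a probe set, and all 9 lay above the filter level of 3.07 in every group. Their summed deposited intensity ran from 79000 to 80900 in GV arrays, from 20600 to 49200 in adult in vivo arrays and from 13700 to 34200 in adult in vitro arrays, and their mean normalized level was 12.52, 10.59 and 10.38. The 9 did not move together. In GV oocytes Zp1, Zp2, Zp3, Mos and Nlrp5 read 11.74, 13.01, 13.15, 11.49 and 13.19. In adult in vivo oocytes they read 7.01, 8.58, 8.91, 9.49 and 11.53. Gdf9, Bmp15, Dppa3 and Oosp1 read 13.55, 11.31, 12.19 and 13.03 in GV oocytes. In adult in vivo oocytes these read 13.32, 11.26, 12.11 and 13.12. Of 10 leukocyte markers, 3 had a mean above the filter level in GV, 8 in adult in vivo and 5 in adult in vitro oocytes, with sums of 150 to 171, 212 to 548 and 71.5 to 126. Of 6 oviduct epithelium markers it was 4, 4 and 2, with sums of 293 to 301, 127 to 747 and 13.3 to 99.4. Of 10 cumulus and granulosa markers it was 7, 7 and 6, with sums of 268 to 319, 154 to 308 and 101 to 225. The part of these markers and of array brightness in the differences below was not tested.

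**Figure D1:**
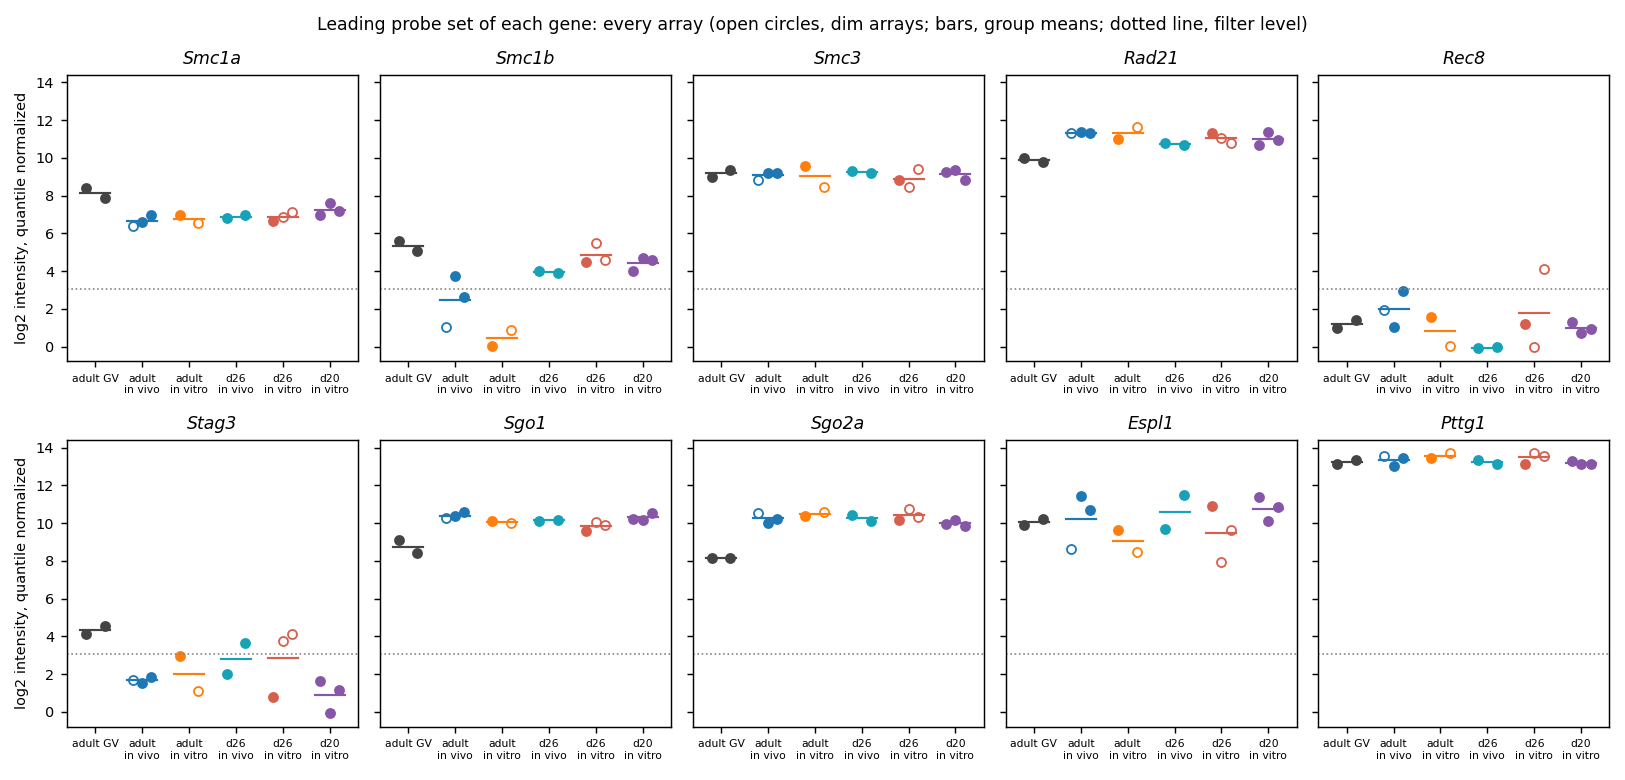
Quantile normalized log2 intensity of the probe set with the highest mean for each of the 10 genes, in 6 groups of oocytes. Each point is 1 array, open points are the 4 dim arrays, bars are group means and the dotted line is the filter level of 3.07. Sgo2a, Sgo1 and Rad21 lay higher in all 13 MII arrays than in both GV arrays on this scale, and Smc1a lay lower.

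The first question was how the levels of these genes differed between GV and MII oocytes of adult females. The brightest probe sets of both shugoshins and of the kleisin Rad21 stood higher in MII oocytes, by 1.29 to 2.36 on the log2 scale. Before normalization the in vitro differences of those of Sgo1 and Rad21 were -0.95 and -0.20. The brightest probe sets of both SMC1 genes stood lower, by 1.38 to 4.85. The second Sgo1 probe set had the opposite sign (-0.67 in vivo and -0.15 in vitro), and the other Smc1a probe sets gave no call. Smc3, Espl1 and the brightest Pttg1 probe set gave no call. After in vivo maturation limma called 5 of the 15 tested probe sets, 3 higher and 2 lower, against a background of 26.8% of all tested probe sets (15.7% higher and 11.1% lower). After in vitro maturation it called 6 of 15, 4 higher and 2 lower, against 27.7% (16.0% higher and 11.7% lower). The median difference of the 15 was 0.11 in vivo and 0.01 in vitro, beside 0.24 and 0.13 over all tested probe sets. Read against that background, neither count is a result about the 10 genes as a set. The 2 comparisons share both GV arrays, so neither is a replicate of the other.

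Sgo2a, the shugoshin that protects centromeric cohesin in mouse oocytes, had the smallest adjusted p of the 10 genes in both comparisons. Its probe set 1437370_at read 8.14 and 8.15 in the GV arrays. In adult MII oocytes it read 10.55, 10 and 10.24 in vivo and 10.40 and 10.61 in vitro. The d26 arrays read 10.41 and 10.10 in vivo and 10.14, 10.75 and 10.34 in vitro, and the d20 arrays 9.95, 10.18 and 9.84. Both GV arrays lay far below every MII array, and the 5 MII groups overlapped one another except d20 and adult in vitro. The difference from GV was 2.12 (SE 0.26, a 4.34-fold rise, limma adjusted p = 5.31e-05) in vivo and 2.36 (SE 0.28, 5.14-fold, limma adjusted p = 5.7e-05) in vitro. The call held in all 15 fits that left out 1 array, with values of 1.95 to 2.25 in vivo and 2.23 to 2.46 in vitro.

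Sgo1, the second shugoshin, moved with Sgo2a in its brighter probe set. Probe set 1439510_at read 9.10 and 8.42 in GV arrays, 10.26, 10.36 and 10.59 in adult in vivo arrays and 10.10 and 10 in adult in vitro arrays. It read 10.11 and 10.19 in d26 in vivo, 9.57, 10.04 and 9.89 in d26 in vitro and 10.24, 10.19 and 10.54 in d20 arrays. No MII array reached down to the higher GV array. The difference was 1.65 (SE 0.26, 3.13-fold, limma adjusted p = 0.000322) in vivo and 1.29 (SE 0.28, 2.44-fold, limma adjusted p = 0.00335) in vitro. Without GV replicate 2 the in vitro difference was 0.97 and missed the threshold (limma adjusted p = 0.0634). The other Sgo1 probe set, 1418919_at, read 7.70 and 7.32 in GV arrays and 6.29 to 7.88 in the 13 MII arrays, so the groups overlapped. Its differences of -0.67 in vivo (limma adjusted p = 0.319) and -0.15 in vitro (0.864) had the opposite sign, and the 2 probe sets of Sgo1 therefore disagreed.

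Rad21, the kleisin of mitotic cohesin, rose in its brightest probe set. Probe set 1416161_at read 9.98 and 9.76 in GV arrays, 11.31, 11.38 and 11.33 in adult in vivo arrays and 11.02 and 11.65 in adult in vitro arrays. It read 10.77 and 10.66 in d26 in vivo, 11.32, 11.04 and 10.80 in d26 in vitro and 10.70, 11.38 and 10.95 in d20 arrays. Every MII array again lay above both GV arrays. The difference was 1.47 (SE 0.26, 2.76-fold, limma adjusted p = 0.000692) in vivo and 1.46 (SE 0.28, 2.75-fold, limma adjusted p = 0.00133) in vitro. A second probe set, 1455938_x_at, gave 1.28 in vivo (limma adjusted p = 0.0519) and 1.48 in vitro (0.0394). Its in vitro call was lost without adult in vitro replicate 2 (1.02, limma adjusted p = 0.278), GV replicate 1 (1.78, 0.072), GV replicate 2 (1.23, 0.234) or d20 replicate 1, 2 or 3 (1.49 each time, 0.051 to 0.0518). It was also lost with median scaling (1.28, 0.0779) and with variances fitted without a trend (1.48, 0.092), and on the deposited scale the difference was -0.13. The in vivo difference passed under several alternatives, among them array weights (0.83, limma adjusted p = 0.0292) and the fit without the 4 dim arrays (0.85, 0.0235). The dimmest Rad21 probe set, 1416162_at, gave -0.24 and -0.44, with adjusted p of 0.914 and 0.833.

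The size and, in vitro, the direction of these rises depended on how the arrays were put on a common scale. As deposited, with no normalization, the median of all tested probe sets lay 0.98 lower in adult in vivo MII than in GV arrays and 1.94 lower in adult in vitro, while quantile normalization put it 0.24 and 0.13 higher. On the deposited scale the Sgo2a difference was 0.65 in vivo and 0.06 in vitro, that of Sgo1 1439510_at was 0.32 and -0.95, and that of Rad21 1416161_at was 0.50 and -0.20, and none was called. Relative to the median of all probe sets on that scale, Sgo2a stood 1.63 and 2.00 higher, Sgo1 1.30 and 0.99 higher and Rad21 1.48 and 1.74 higher. With arrays scaled to a common median, Sgo2a (1.43 and 1.47) and Rad21 (1.27 and 1.21) stayed called in both comparisons. Sgo1 did so in vivo (1.09, limma adjusted p = 0.044) but not in vitro (0.47, 0.444). The second Sgo1 probe set, 1418919_at, was called lower with median scaling (-1.73, limma adjusted p = 0.00649, in vivo and -1.54, 0.0187, in vitro) and as deposited (-2.51, 0.0243, and -2.96, 0.0107). On the normalized scale it was called lower in vivo with array weights (-0.97, limma adjusted p = 0.0115). The rises of the leading probe sets are rises relative to the other transcripts on the array.

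The deposited intensities themselves show the range behind these values. For Sgo2a they were 839 and 813 in GV arrays, 663, 1630 and 2030 in adult in vivo arrays and 1260 and 588 in adult in vitro arrays. The values of 663 and 588 came from the dim arrays, and the other 3 adult MII arrays exceeded both GV arrays. For Sgo1 1439510_at they were 1390 and 923 in GV arrays, 522, 2110 and 2560 in vivo and 983 and 351 in vitro, so the in vitro arrays did not stand above GV on that scale. With the 4 dim arrays left out and no normalization, an alternative chosen after seeing the data, the in vivo rises of Sgo2a (1.14, limma adjusted p = 0.00873), Rad21 (1.07, 0.0162) and Sgo1 (1.04, 0.0362) were called. The in vitro differences, resting on 1 adult in vitro array, were 0.61, 0 and -0.20 and were not called.

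**Figure D2:**
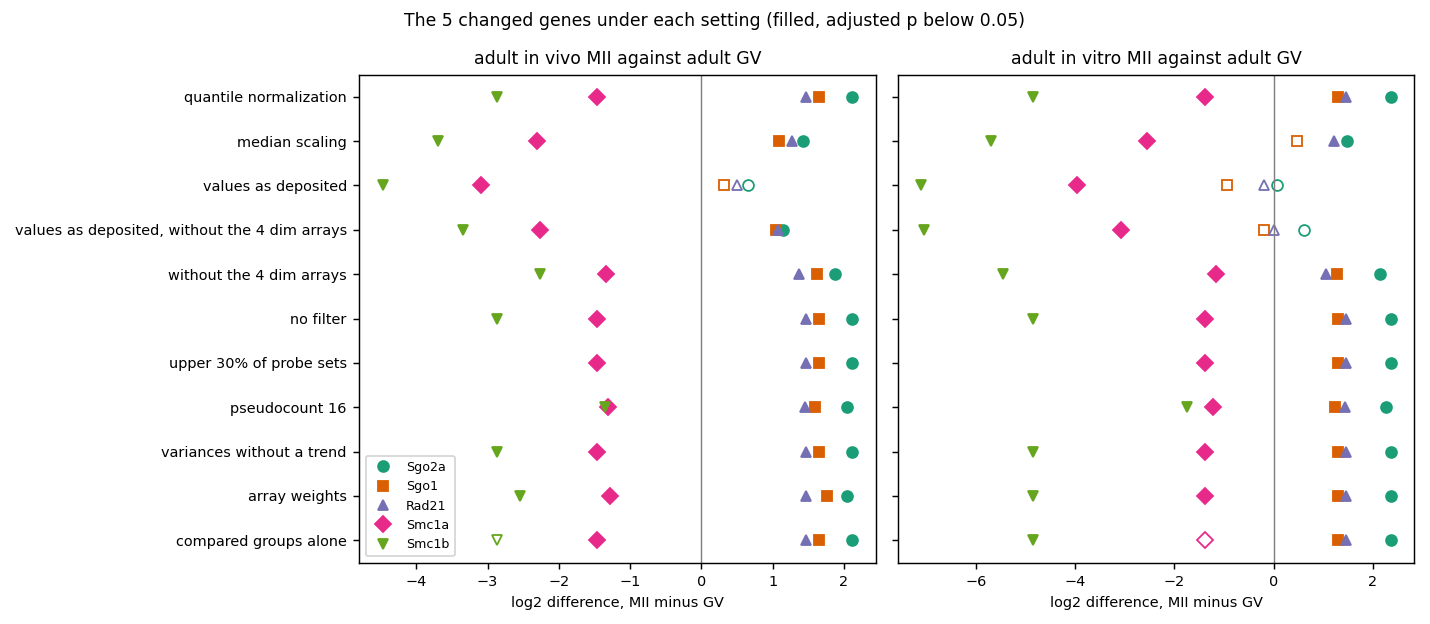
Log2 difference, MII minus GV, of the leading probe sets of Sgo2a, Sgo1, Rad21, Smc1a and Smc1b under quantile normalization and 10 other settings, with filled symbols for an adjusted p below 0.05. Smc1b is below the filter at the upper 30% of probe sets and has no symbol there. Smc1a and Smc1b lay below 0 under every setting, while the Sgo1 and Rad21 differences in vitro fell to -0.95 and -0.20 with the values as deposited.

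Among the falling genes, Smc1a encodes the SMC1 subunit found in all cells. Its brightest probe set, 1417830_at, read 8.40 and 7.87 in GV arrays, 6.38, 6.62 and 6.99 in adult in vivo arrays and 6.97 and 6.55 in adult in vitro arrays. It read 6.80 and 6.97 in d26 in vivo, 6.64, 6.85 and 7.13 in d26 in vitro and 6.95, 7.59 and 7.17 in d20 arrays. All 13 MII arrays lay below both GV arrays. The difference was -1.47 (SE 0.37, 2.78-fold lower, limma adjusted p = 0.00733) in vivo and -1.38 (SE 0.40, 2.60-fold lower, limma adjusted p = 0.0182) in vitro. On the deposited scale it was -3.09 and -3.97, and both were called. Without GV replicate 1 the differences were -1.23 and -1.13 and missed the threshold (limma adjusted p = 0.108 and 0.16), and without adult in vitro replicate 2 the in vitro difference was -1.17 (0.115). The in vitro call was also lost in a fit of the compared groups alone (-1.38, limma adjusted p = 0.0523). The other 2 Smc1a probe sets gave -0.41 and -0.40 (1417831_at) and -1.45 and 0.01 (1417832_at), with no call.

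Smc1b, the SMC1 subunit of meiotic cohesin, fell in both comparisons, to levels mostly below the filter. Its probe set 1449253_at read 5.57 and 5.09 in GV arrays, 1.03, 3.74 and 2.61 in adult in vivo arrays and 0.06 and 0.89 in adult in vitro arrays. Only 1 of these 5 adult MII arrays lay above the filter level of 3.07, and the deposited intensities were 172 and 105 in GV arrays, 1.28, 21.3 and 8.24 in vivo and 1.02 and 0.944 in vitro. The difference from GV was -2.87 (SE 0.80, limma adjusted p = 0.015) in vivo and -4.85 (SE 0.88, limma adjusted p = 0.000872) in vitro. Adding 16 to each intensity, which damps values near 0, reduced these sizes to -1.35 and -1.75 with both calls kept, beside -1.31 and -1.23 for Smc1a 1417830_at treated alike, so the size of the fall is poorly fixed. The in vivo call was lost without GV replicate 1 (-2.58, limma adjusted p = 0.132), without GV replicate 2 (-3.03, 0.0773) and in a fit of the compared groups alone (-2.87, 0.062).

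**Figure D3:**
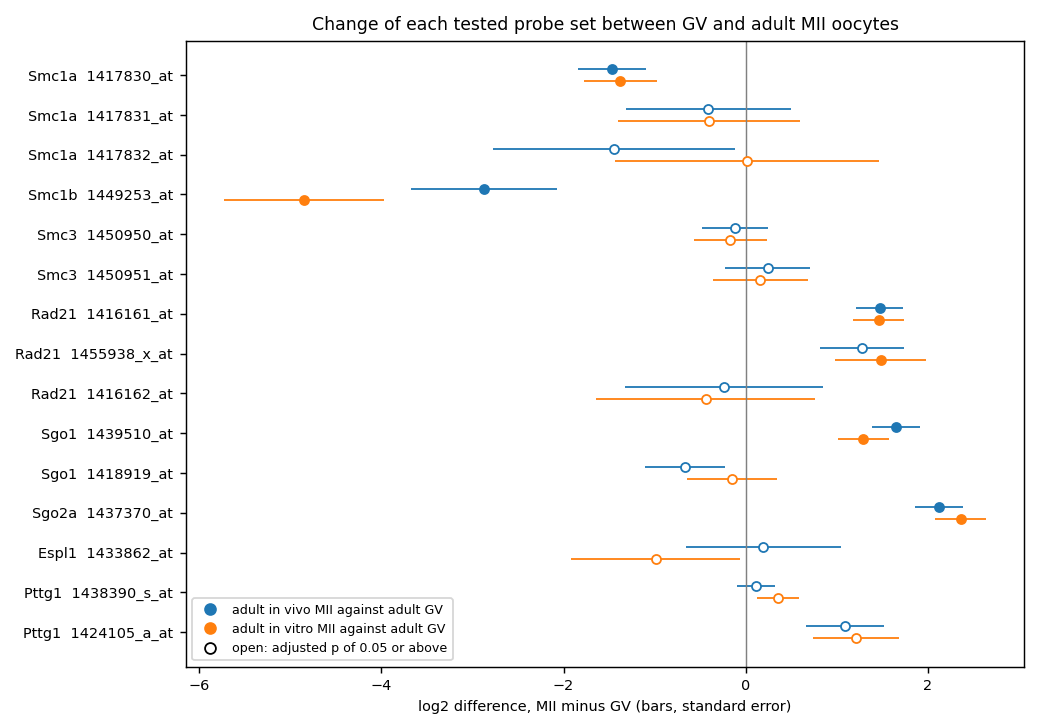
Log2 difference, MII minus GV, of the 15 tested probe sets in adult oocytes matured in vivo and in vitro. Points are differences, bars their standard errors, and filled points have an adjusted p below 0.05. Sgo2a, Sgo1 1439510_at and Rad21 1416161_at lay between 1.29 and 2.36, Smc1a 1417830_at and Smc1b between -1.38 and -4.85.

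Smc3, the partner of either SMC1 protein in the ring, differed little between stages. Its brightest probe set, 1450950_at, read 9.01 and 9.37 in GV arrays and 8.44 to 9.56 in the 13 MII arrays. The GV values lay inside the MII range. The differences were -0.12 (SE 0.36, limma adjusted p = 0.863) in vivo and -0.17 (SE 0.40, limma adjusted p = 0.801) in vitro, and those of 1450951_at were 0.24 and 0.16. On the deposited scale 1450951_at had -1.67 (limma adjusted p = 0.256) and -2.47 (0.0658), with the sign turned. The p-values do not show equality, and with no normalization and without the dim arrays 1450951_at was called lower (-1.16, limma adjusted p = 0.0433, in vivo, and -1.42, 0.0369, in vitro).

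Rec8 and Stag3, the meiotic kleisin and STAG subunits, lay below the filter on their only probe sets. Rec8 1419147_at read 0.97 and 1.43 in GV arrays and -0.08 to 4.11 in MII arrays, with 14 of its 15 values below 3.07. No difference was read from values this low. Stag3 1460229_at read 4.14 and 4.54 in GV arrays, 1.72, 1.51 and 1.84 in adult in vivo, 2.96 and 1.11 in adult in vitro, 2.02 and 3.64 in d26 in vivo, 0.78, 3.75 and 4.12 in d26 in vitro and 1.64, -0.03 and 1.15 in d20 arrays. All 13 MII arrays lay below both GV arrays, the closest by a small margin. Among the tested probe sets, which do not include Stag3, 15.8% had such a separation in this direction. With no filter the adult differences were -2.65 in vivo (limma adjusted p = 0.167) and -2.30 in vitro (0.291), so no change was called.

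Espl1, the separase that cuts the kleisin, varied widely within groups. Its probe set 1433862_at read 9.90 and 10.20 in GV arrays, 8.62, 11.43 and 10.68 in adult in vivo, 9.65 and 8.46 in adult in vitro, 9.69 and 11.49 in d26 in vivo, 10.91, 7.94 and 9.61 in d26 in vitro and 11.37, 10.11 and 10.84 in d20 arrays. The differences from GV were 0.19 (SE 0.85, limma adjusted p = 0.911) in vivo and -0.99 (SE 0.93, limma adjusted p = 0.487) in vitro, and as deposited they were -0.90 and -3.02, with no call. Low values followed array brightness: the 4 dim arrays read 7.94 to 9.61 and the other 9 MII arrays 9.65 to 11.49, a separation in this direction that 2.78% of all tested probe sets had.

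Pttg1, the securin that binds separase, was near the top of the array on 1438390_s_at, at 99.9% in the rank of all probe sets by mean. It read 13.15 and 13.32 in GV arrays and 13 to 13.72 in MII arrays, with differences of 0.11 (SE 0.21, limma adjusted p = 0.774) in vivo and 0.35 (SE 0.23, limma adjusted p = 0.298) in vitro. The 4 dim arrays read 13.58 to 13.72 and the other 9 MII arrays 13 to 13.45, a separation that 2.27% of all tested probe sets had in this direction. As deposited the dim arrays read 5930 to 10300 and the other MII arrays 9400 to 15800, so they overlapped. With median scaling the differences of 1438390_s_at from GV were 0.76 in vivo (limma adjusted p = 0.221) and 1.28 in vitro (0.0517), with no call. Relative to the median of all probe sets as deposited, 1438390_s_at stood 0.97 and 1.81 higher. A second probe set, 1424105_a_at, read 9.01 and 7.16 in the GV arrays and 8.33 to 9.44 in MII arrays. Its differences of 1.09 (limma adjusted p = 0.0803) in vivo and 1.21 (0.0723) in vitro were not called, and without GV replicate 1 they were 2.05 (0.00431) and 2.17 (0.0041). With array weights the in vivo difference passed (1.05, limma adjusted p = 0.0416). With median scaling the differences were 0.27 and 0.13, and on the deposited scale they turned to -0.51 and -1.28, with no call. The third, 1419620_at, lay below the filter, at 3.27 and 3.29 in GV arrays and -1 to 4.10 in MII arrays.

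Taking the 3 ages at once, 3 of the 15 tested probe sets had all 13 MII arrays above both GV arrays (background 18.0%), and these were the leading probe sets of Sgo2a, Sgo1 and Rad21. By contrast 1 of 15 had all 13 below (background 15.8%), Smc1a 1417830_at. Read against the background, neither count is a result about the 10 genes as a set.

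The start regions of Sgo1, Sgo2a, Smc1a and Smc1b are shown, 4 of the 5 genes whose leading probe set was called, to set the pair that rose beside the pair that fell. Each sequence is the 250 bases upstream of the RefSeq transcript start in GRCm38.p6, read along the gene's strand. In the table of RefSeq start regions used here, 10 entries matched 9 of the 10 genes, with 2 start sites for Sgo2a, and Rad21 was not matched. Capitals mark CACGTG, the E-box letters, and TTCCCGC, letters bound by E2F factors, each searched on both strands.
Sgo1, chr17:53689316-53689565, minus strand: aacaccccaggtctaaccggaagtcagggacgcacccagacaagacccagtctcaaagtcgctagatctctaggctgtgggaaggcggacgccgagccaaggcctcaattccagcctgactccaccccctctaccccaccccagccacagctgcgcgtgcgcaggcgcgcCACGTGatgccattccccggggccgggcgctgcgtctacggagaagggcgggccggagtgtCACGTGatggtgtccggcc
Sgo2a, upstream start, chr1:57985090-57985339, plus strand: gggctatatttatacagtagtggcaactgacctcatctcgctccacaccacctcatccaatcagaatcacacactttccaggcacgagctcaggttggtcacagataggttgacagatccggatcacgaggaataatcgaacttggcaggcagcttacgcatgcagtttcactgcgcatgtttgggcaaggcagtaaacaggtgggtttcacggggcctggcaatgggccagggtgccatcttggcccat
Sgo2a, downstream start, chr1:57995724-57995973, plus strand: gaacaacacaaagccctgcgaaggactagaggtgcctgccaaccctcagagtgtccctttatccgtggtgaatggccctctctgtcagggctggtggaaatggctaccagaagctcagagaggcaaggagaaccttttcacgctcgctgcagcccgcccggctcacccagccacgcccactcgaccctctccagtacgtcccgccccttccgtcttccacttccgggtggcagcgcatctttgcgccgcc
Smc1a, chrX:152016178-152016427, plus strand: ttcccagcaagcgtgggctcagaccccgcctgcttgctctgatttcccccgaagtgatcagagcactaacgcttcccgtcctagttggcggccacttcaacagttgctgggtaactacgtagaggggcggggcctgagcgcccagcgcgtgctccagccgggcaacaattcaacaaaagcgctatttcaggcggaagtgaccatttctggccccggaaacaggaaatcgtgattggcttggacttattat
Smc1b, chr15:85131958-85132207, minus strand: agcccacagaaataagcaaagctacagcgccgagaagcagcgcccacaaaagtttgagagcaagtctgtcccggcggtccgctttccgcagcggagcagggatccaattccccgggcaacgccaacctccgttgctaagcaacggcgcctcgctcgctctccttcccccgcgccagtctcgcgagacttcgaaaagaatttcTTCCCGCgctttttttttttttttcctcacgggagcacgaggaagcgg
The Sgo1 region held CACGTG 2 times and neither Sgo2a region held it. CACGTG was present in 3 of the 10 entries (Espl1, Sgo1 and Stag3) and in 6.02% of 32851 mouse promoter entries of the same length. TTCCCGC was present in 1 of 10, that of Smc1b, and in 3.82% of all entries. CCAAT, searched on both strands, was present in 6 of 10 and in 33.8% of all. A match describes the letters of the sequence and says nothing of binding.

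The next question was whether the route of maturation, in vivo or in vitro, changed these genes in MII oocytes. Limma called 0 of the 15 tested probe sets in adult oocytes (background 0.00444%), 0 in d26 oocytes (0.0400%), 0 for the mean over both ages (0.226%) and 0 for the difference between ages (0%). At an unadjusted p below 0.05 there was 1 in adult oocytes, 0 at d26, 0 for the mean and 1 for the difference between ages, and Smc1b was that 1 both times. Over all tested probe sets the shares at that level were 8.00%, 6.80%, 12.4% and 3.73%. The adult and d26 differences ran from -1.46 to 1.98 and from -2.04 to 1.10.

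The Sgo1 probe set 1439510_at had all 5 in vivo arrays, at 10.11 to 10.59, above all 5 in vitro arrays of the same ages, at 9.57 to 10.10. A separation in this direction was seen in 1.07% of tested probe sets. The mean difference was 0.34 (SE 0.18, limma adjusted p = 0.454), so it did not pass. The in vitro matured d20 arrays, at 10.19 to 10.54, lay in the in vivo range. The other Sgo1 probe set, 1418919_at, had the opposite sign at both ages, with overlapping arrays. Its in vivo minus in vitro difference was -0.52 in adult (limma adjusted p = 0.733) and -0.72 in d26 oocytes (0.79). The 2 probe sets of Sgo1 thus disagreed here too. Sgo2a also went the other way from 1439510_at, by 0.20 with overlapping arrays (mean difference -0.20, SE 0.18, limma adjusted p = 0.643).

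For Smc1b the 2 ages stood opposite. In adult oocytes the 3 in vivo arrays (1.03, 3.74 and 2.61) lay above the in vitro arrays (0.06 and 0.89), an order that 9.56% of tested probe sets showed, with a difference of 1.98 (SE 0.80, limma adjusted p = 0.573). At d26 the in vivo arrays (4.01 and 3.89) lay below the in vitro arrays (4.48, 5.50 and 4.60), as in 8.91% of probe sets, with a difference of -0.91 (SE 0.80, limma adjusted p = 0.816). The difference between the ages was 2.89 (SE 1.14, unadjusted p = 0.0227, limma adjusted p = 1) and did not pass.

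Age was compared among in vitro matured MII oocytes, where the comparisons of d20 and d26 with adult share the 2 adult arrays. Limma called 0 of 15 probe sets for d20 against adult (background 0.0222%), 0 for d26 against adult (0.00444%) and 0 for d20 against d26 (0%). At an unadjusted p below 0.05 there were 1, 1 and 0, and both were Smc1b, where all tested probe sets gave 17.6%, 7.34% and 11.5%. Smc1b read 4.03, 4.69 and 4.61 at d20 and 4.48, 5.50 and 4.60 at d26, all above the adult values of 0.06 and 0.89. Groups that did not overlap in this direction were seen in 21.9% of tested probe sets for d20 and 7.38% for d26. The difference from adult was 3.97 at d20 (SE 0.80, unadjusted p = 0.000193, limma adjusted p = 0.099) and 4.38 at d26 (SE 0.80, unadjusted p = 7.32e-05, limma adjusted p = 0.292). Without the 4 dim arrays the d20 difference was 4.47, resting on 1 adult in vitro array with a deposited Smc1b intensity of 1.02. Without adult in vivo replicate 1 both differences passed (3.98, limma adjusted p = 0.0337, and 4.41, 0.0458). That array is in neither comparison, and the share called over all probe sets in that fit is not given here. The deposited Smc1b intensities of the 2 adult in vitro arrays were 1.02 and 0.944, so the size of these age differences is poorly fixed.

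For the order of groups, Smc1b ran from GV (mean 5.33, SD 0.34, n = 2) through d26 in vitro (4.86, SD 0.56, n = 3), d20 (4.45, SD 0.36, n = 3), d26 in vivo (3.95, SD 0.08, n = 2) and adult in vivo (2.46, SD 1.36, n = 3) to adult in vitro (0.48, SD 0.59, n = 2). Neighbours among the first 4 of these groups differed by less than 0.80, the standard error of a difference between groups of 2 and 3 arrays. In the d20 group Sgo2a was 0.51 below adult in vitro (SE 0.26, limma adjusted p = 0.317), with no call. Espl1 was 1.72 above adult in vitro (SE 0.85, limma adjusted p = 0.305), also with no call. The Espl1 arrays of the 2 groups did not overlap, as in 4 of the 15 tested probe sets and 21.9% of all in this direction.

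Over all 15 arrays the genes whose level followed Sgo2a most closely were Rexo2 and Ipo5, with mean absolute differences of 0.10 and 0.11 between centred log2 levels. For Smc1b they were Cntn2 (0.69) and Syt8 (0.70), against a range of 5.51 for Smc1b itself. For Pttg1 they were Spin1 (0.07) and Wasl (0.11), against a range of only 0.73 for Pttg1. For Rec8 they were Carf (0.57) and Slc29a3 (0.58), against a range of 4.19. The Rec8 levels lay mostly below the filter, so its likeness to other genes is not read further. These values describe likeness across arrays that share their brightness differences.

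Other genes that act on cohesin, its protection and its release were counted in 3 lists, each gene by its brightest probe set, beside 12028 genes of which 18.3% were called higher and 12.3% lower in vivo and 18.4% and 12.9% in vitro. Of 11 tested genes of cohesin variants and regulators, limma called 6 higher and 1 lower in vivo (median 0.94, beside 0.26 over all genes) and 5 higher and 1 lower in vitro (1.07 beside 0.13). Stag1 and Stag2, the STAG subunits of mitotic cohesin, were higher by 2.74 (SE 0.35) and 2.25 (SE 0.33) after in vivo maturation and by 3.01 (SE 0.38) and 2.56 (SE 0.36) after in vitro maturation. Wapl, which opens the ring, was higher by 1.14 (SE 0.20) and 1.17 (SE 0.22), the latter turning to -0.08 before normalization. On the deposited scale limma called 0 of the 11 in either comparison (background 15.6% and 27.7% of all probe sets tested on that scale, nearly all lower), and at an unadjusted p below 0.05 there were 0 in vivo and 1, lower, in vitro. The list median on that scale was 0.14 in vivo and -0.34 in vitro, beside -0.98 and -1.94 over all tested probe sets. Without GV replicate 2 the genes called higher were 3 in either comparison (background 8.34% and 9.92%), and the 1 gene called lower was lost in most in vivo and some in vitro fits that left out 1 array.

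For centromere protection and its kinases, 16 genes were tested, with 3 called higher and 5 lower in vivo (median -0.22) and 2 higher and 4 lower in vitro (median -1.04). Ppp2ca, the catalytic subunit of PP2A, had differences of -2.45 (SE 0.34) in vivo and -1.98 (SE 0.37) in vitro. Ppp2r5c, a regulatory subunit of PP2A, had 1.31 (SE 0.22) and 1.34 (SE 0.24), the latter turning to -0.44 before normalization. Birc5, a subunit of the chromosomal passenger complex that carries Aurora B, fell in both comparisons, with differences of -2.88 (SE 0.47) and -2.80 (SE 0.52). Haspin, a histone kinase that recruits that complex, had differences of -1.89 (SE 0.38) and -2.22 (SE 0.41). On the deposited scale limma called 0 higher and 4 lower in vivo and 0 and 7 in vitro, and at an unadjusted p below 0.05 the counts were 0 and 7, and 0 and 11. Over all probe sets tested on that scale 15.5% were called lower in vivo and 27.6% in vitro, and 25.8% and 40.1% were lower at the unadjusted level. Without GV replicate 2 fewer genes of the list were called higher in vivo, and the list median was -0.11. The share called higher over all probe sets, given above for that fit, was also lower.

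For separase release and inhibition, 22 genes were tested, with 8 called higher and 5 lower in vivo (median 0.10) and 7 and 4 in vitro (median -0.27). Cdk1, the kinase that with cyclin B inhibits separase, had differences of -4.83 (SE 0.70) and -7.33 (SE 0.76). Cdc20, which activates the anaphase-promoting complex, was 1.26 (SE 0.22) and 1.25 (SE 0.24) higher. Anapc10 and Cdc27, subunits of that complex, were 1.86 (SE 0.24) and 1.91 (SE 0.28) higher in vivo and 2.52 (SE 0.26) and 2.33 (SE 0.30) higher in vitro. Fbxo43, the egg inhibitor of the complex, was 2.70 (SE 0.54) and 3.37 (SE 0.59) higher. Without normalization limma called 0 higher and 4 lower in vivo and 0 and 8 in vitro, with 0 and 9, and 0 and 12, at an unadjusted p below 0.05, beside the same shares over all probe sets. Fewer genes of the list were called lower in vivo without GV replicate 1, GV replicate 2 or adult in vivo replicate 1. The list medians were then 0.14, 0.21 and 0.44. The share called lower over all probe sets in those fits is not given here, so the drop is not a result about the list. In the other 7 comparisons limma called 0 of the 49 genes of the 3 lists, with 0 to 12 at an unadjusted p below 0.05, the 12 for d20 against adult in vitro, where 17.6% of all tested probe sets also lay below that level.

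**Figure D4:**
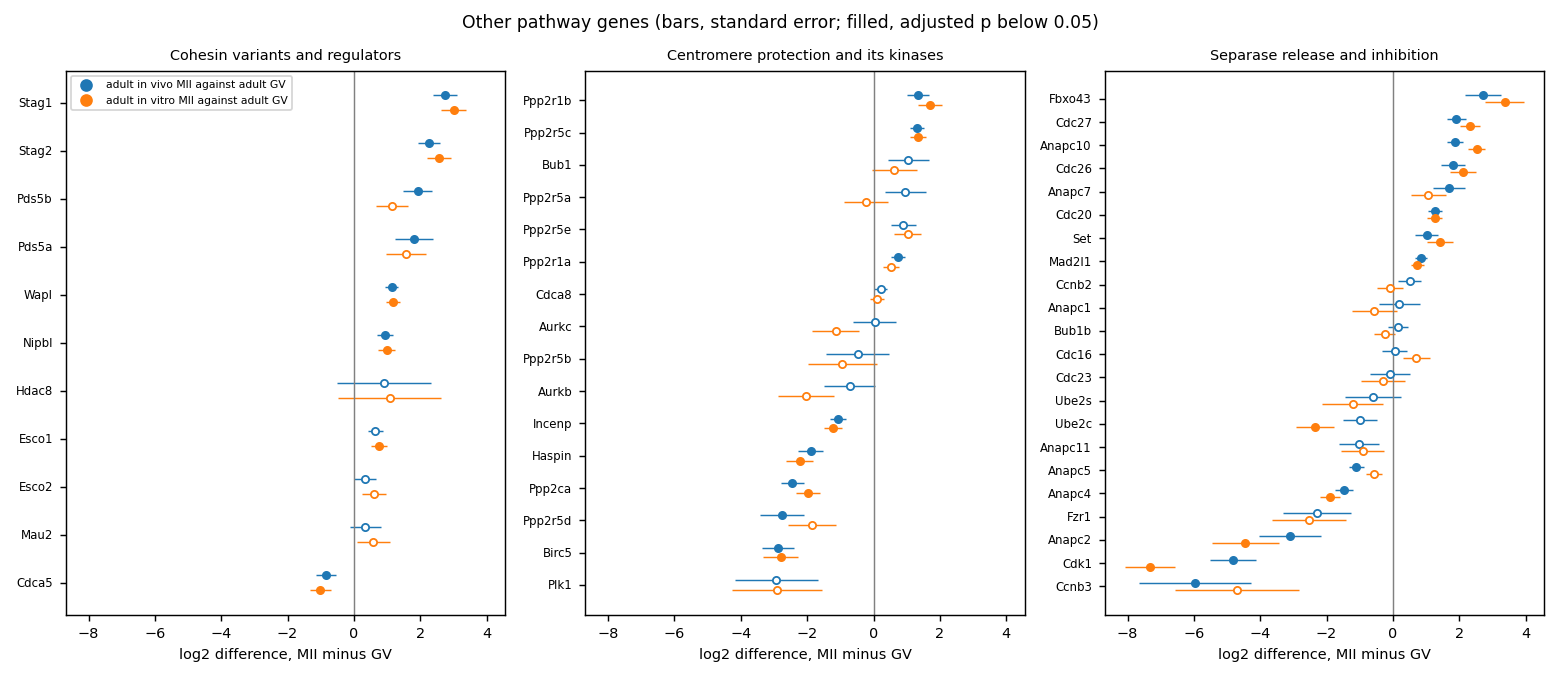
Log2 difference, MII minus GV, of 49 tested genes in 3 lists in adult oocytes matured in vivo and in vitro. Bars are standard errors and filled points have an adjusted p below 0.05. Stag1 and Stag2 head the first list at 2.25 to 3.01, Birc5 and Ppp2ca lie between -1.98 and -2.88 in the second, and Cdk1 falls to -7.33 in the third.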

How the data were processed

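The authors deposited 1 table of linear intensities, 45101 probe sets by 15 arrays. The submitters' processing notes name MAS5, with version and target level not given in the sources used here. Array medians ran from 5.08 to 25.3, so log2 intensities were quantile normalized without the 64 control probe sets. The upper 50% by mean over all arrays were tested by limma (3.58.1, R 4.3.3) using 1 coefficient per group, a variance trend, 9 residual degrees of freedom and Benjamini-Hochberg adjustment within each of 9 comparisons.

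Probe sets were named from the platform annotation (34958 with 1 symbol, 932 with several, 9211 with none). Each of the 10 genes was named, leading with its brightest probe set. Up to 6 called genes per list, by smallest p, could be named, and among those the genes printed were picked after their values were seen. Genes alike were ranked by the mean absolute difference of centred levels. The members and lists were chosen with earlier results of these data known.

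The method was tested on simulated arrays with 200 changed among 22519 probe sets. For adult in vivo MII against GV it recovered 66.7% of changes of 4, 22.4% of 2 and 2.99% of 1 on the log2 scale, with 4 false calls. In the data 26.8% of tested probe sets were called in that comparison, so the adjusted threshold was less strict there. The recovered shares therefore do not carry over to the data. The number of arrays limits the precision. Alternatives were the deposited scale, median scaling, other filters, a pseudocount of 16, variances without a trend, array weights, the compared groups alone, and arrays left out.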

Additional observations from a re-analysis of the deposited data

Results flagged for a closer look

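Smc1b (1449253_at) is listed because its 2 ages moved in opposite directions between maturation routes. All 3 adult in vivo arrays lay above both adult in vitro arrays, and both d26 in vivo arrays lay below all 3 d26 in vitro arrays. The difference between the ages was 2.89 on the log2 scale, with an unadjusted p of 0.0227 in limma and an adjusted p of 1. With 16 added to each intensity it was 0.95.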

How the results depend on the processing

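Among the 15 tested probe sets, the number called was 5 in adult in vivo MII against GV and 6 in vitro. With the values as deposited it was 3 and 3, all lower (15.5% and 27.6% of all probe sets), and with array weights it was 8 in vivo (45.7% of all). Leaving out 1 array at a time gave 4 to 6 calls in either comparison, where a group left with 1 array was assumed to vary like the others. For d20 against adult in vitro it gave 0 to 1, as it did for d26 against adult, and the count for d20 against adult was 1 without the 4 dim arrays, on the normalized (1.44% of all) and on the deposited scale (1.56%). Leaving out the dim arrays left 1 adult in vitro array. The counts from the fits that left out 1 array at a time stand here without the share called over all probe sets. Those ranges are therefore not a result about the member probe sets as a set. Over all tested probe sets the split of higher against lower calls was 3542 to 2495 in vivo and 3607 to 2641 in vitro, against 23 to 3481 and 11 to 6224 as deposited and 1205 to 3876 and 1315 to 4468 with median scaling.

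Among the member probe sets and named genes, the following differences from GV changed sign with the values as deposited. Of those called after quantile normalization, these were in vitro Rad21 1416161_at (-0.20), Rad21 1455938_x_at (-0.13), Sgo1 1439510_at (-0.95), Wapl (-0.08), Nipbl (-1.07), Esco1 (-0.34), Ppp2r5c (-0.44), Ppp2r1b (-1.11) and Cdc26 (-0.64), and in vivo Pds5b (-0.04), Nipbl (-0.22) and Cdc26 (-0.01). Of those called on neither scale, they were Pttg1 1424105_a_at (-0.51 in vivo, -1.28 in vitro), Pttg1 1438390_s_at (-0.01, -0.13), Smc3 1450951_at (-1.67, -2.47), Espl1 in vivo (-0.90) and Smc1a 1417832_at in vitro (-2.17). On the deposited scale without the dim arrays, chosen after seeing the data, these were Smc3 1450951_at (-1.16 in vivo and -1.42 in vitro) and, in vitro, Sgo1 1439510_at (-0.20), Rad21 1455938_x_at (-0.08), Nipbl (-0.28), Ppp2r1b (-0.09), Pttg1 1424105_a_at (-0.68), Pttg1 1438390_s_at (-0.05) and Smc1a 1417832_at (-2.16). These settings leave the overall brightness of the arrays in the values, and beyond that the cause was not tested. No paired analysis was possible because the labels give the groups no shared replicate numbers. Sequencing depth does not apply to arrays, and the size of the Smc1b fall is limited because 4 of its 5 adult MII values lay below the filter level.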
